A study of Saccharomyces cerevisiae with 3 samples.

Results

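A low dose of tomatidine was set against its solvent on 1 array each. The array titled 7.5 µM tomatidine and the array titled control are 2 of the 3 arrays of the study, and every probe set except the array's own control probe sets was used. Both came from cultures of the laboratory yeast Saccharomyces cerevisiae, strain S288c, taken 5 h after the cells received 7.5 µM tomatidine in DMF or DMF alone. The remaining array, 5 h with 15 µM tomatidine in the same solvent, is used only to show where the low dose differed from the high one. Tomatidine is the aglycone of tomatine, a steroidal alkaloid with which tomato plants defend themselves.

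Each condition had 1 array, hence no replicate and no test: every value below is a size of change between these arrays, and their number limits the precision. Ratios of 7.5 µM and of 15 µM to control share the control array, and comparisons of the low dose with both others share the 7.5 µM array. The labels do not say how many cultures stand behind an array or whether RNA was pooled. S288c is of alpha mating type, and the alpha-specific genes MF(ALPHA)1, MF(ALPHA)2, STE3 and SAG1 had signals of at least 387 at 7.5 µM and 372 in the control, while none of 7 a-specific genes, STE2 and BAR1 among them, was above the signal floor of 18.2 on any array.

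Signals were scaled so that the arrays had the same median, and anything under the 40th percentile of all scaled signals was raised to that floor. A gene is called higher or lower here if it differed by 2-fold or more and its brighter signal exceeded the floor. Where the dimmer array was under it, the fold is given as "at least". After this scaling, 8 spiked-in bacterial and phage control probe sets were 1.61-fold dimmer at 7.5 µM than in the control (geometric means of 137 and 220), so all ratios are relative to the median probe set, not to the spikes. The signal ratio of the 3' to the 5' probe set, which rises as RNA breaks down, was 1.80 at 7.5 µM and 1.63 in the control for ACT1, and 2.35 and 3.30 for SPT15; their part in the results was not tested. Where 206 genes had 2 or more probe sets above the floor, the log2 ratios of probe sets of one gene had a pooled SD of 0.35, a spread that contains probe effects within a culture but nothing of the spread between cultures.

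Ergosterol, the main sterol of the yeast plasma membrane, is made from acetyl-CoA through the mevalonate pathway, squalene and lanosterol. When sterol runs short, the transcription factors Upc2 and Ecm22 raise genes of its synthesis, and Upc2 also raises importers and cell wall mannoproteins that cells otherwise use without oxygen. Yeast also holds whole pathways under single regulators, such as Gcn4 for amino acid synthesis, Pho4 for phosphate uptake and Aro80 for the breakdown of aromatic amino acids, so pathways are described as groups below.

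At 7.5 µM the genes furthest above the control were 2 cell wall mannoprotein genes of cells without oxygen, DAN4 and DAN1, followed by PBI1, a peroxiredoxin gene, genes of sterol and phosphate metabolism and the arginine gene ARG1. Among the genes furthest below were TIP1, a cell wall mannoprotein gene of aerated cells, the polyamine exporter gene TPO2 and ARO10, which cannot be ranked because TPO2 and ARO10 were under the floor at 7.5 µM. Of 4653 genes above the floor on either array, 94 were called higher (2.02%) and 29 lower (0.623%), while 86.0% lay within 1.5-fold of the control. With the values as deposited, without scaling to the median, the split was 126 higher and 19 lower, and with the arrays scaled on the spikes, which moved the median log2 ratio of all genes by 0.65, it was 797 and 4. Many calls sat at the threshold: 30 of the 94 had log2 ratios between 1 and 1.1, and 48 genes just outside lay between 0.9 and 1. Below the control, 11 of the 29 lay between -1 and -1.1 and 22 more between -0.9 and -1.

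**Figure D1:**
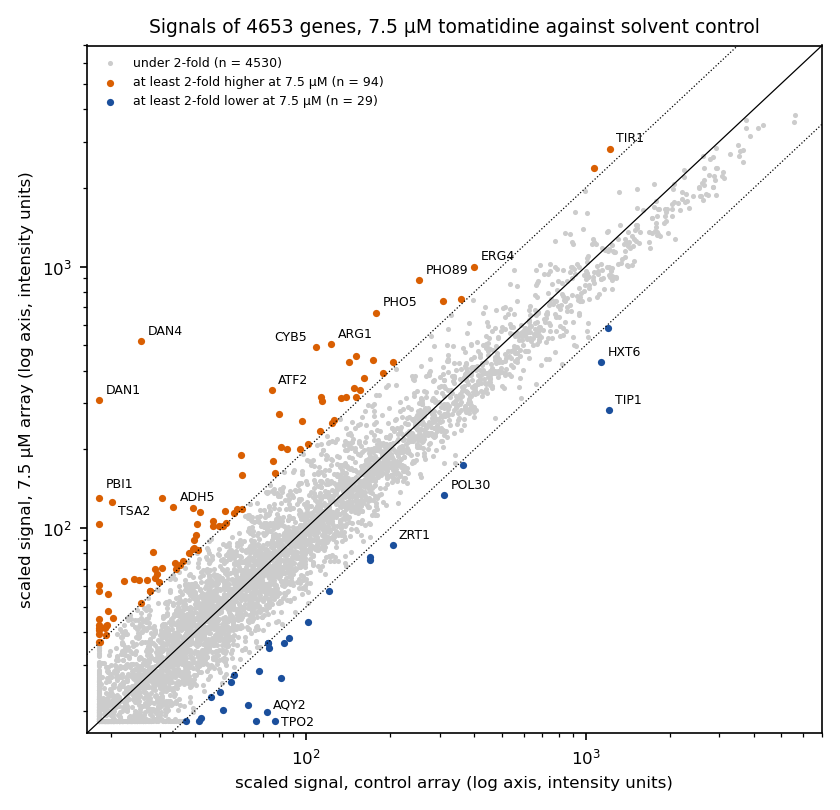
Scaled signal of each gene on the 7.5 µM array (vertical, log axis, intensity units) against the control array (horizontal, log axis). Each point is 1 of 4653 genes, with signals under the floor drawn at it, the solid line marks equal signals and the dotted lines 2-fold. The 94 higher genes are orange and the 29 lower genes blue, and DAN4 and DAN1 lie furthest above the line.

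DAN4 had a signal of 518 at 7.5 µM, against 25.7 in the control, and was 20.1-fold higher. DAN1, its chromosomal neighbour, had 308 at 7.5 µM, against 16.6 in the control, and was at least 16.9-fold higher. PBI1 had 130 at 7.5 µM, against 14.6 in the control, and was at least 7.13-fold higher. These 3 genes were at or near the floor in solvent and plainly above it with the drug. TSA2, a cytosolic peroxiredoxin that reduces peroxides, was 6.22-fold higher, with 126 at 7.5 µM against 20.2 in the control. YMR317W, a gene with only a systematic name, was at least 5.68-fold higher, and YSR3, a phosphatase of phosphorylated sphingoid bases, was 4.27-fold higher, with 131 against 30.6. ATF2, an acetyltransferase that acts on alcohols and sterols, had 337 at 7.5 µM against 75.3 in the control. The 15 µM array was brighter again for all 3 of TSA2, YSR3 and PBI1, with 282, 258 and 284.

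ADH5, an alcohol dehydrogenase isozyme, was 3.57-fold higher, with signals of 33.5, 120 and 82.1 in the control, at 7.5 µM and at 15 µM. SCM4 was 3.40-fold higher and YDL124W 3.25-fold. HES1, an oxysterol-binding protein homolog, had 60.8 at 7.5 µM against 1.46 in the control, which the floor turns into at least 3.33-fold. Its call ended at the 60th percentile floor.

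**Figure D2:**
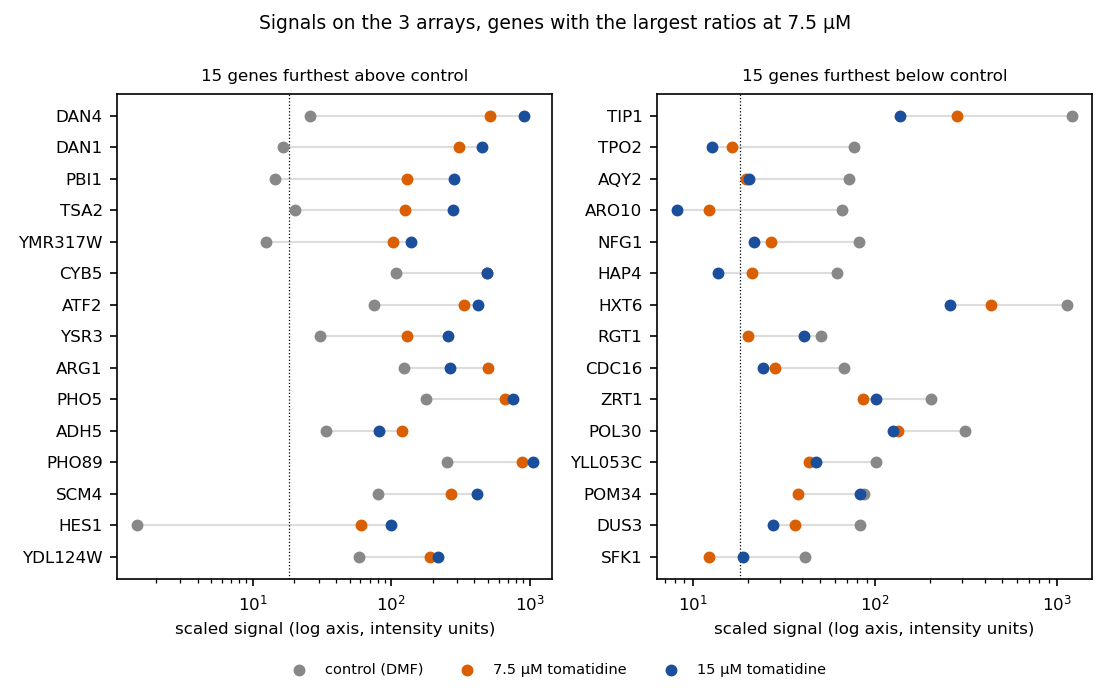
Scaled signal on each of the 3 arrays (log axis, intensity units) for the 15 genes with the largest ratios of 7.5 µM to control in each direction. Dots are single arrays, the dotted line is the signal floor of 18.2, and the 7.5 µM dot of CYB5 (493) lies under its 15 µM dot (491). ARG1 and ADH5 are among the genes brightest at 7.5 µM, and RGT1 and POM34 among those dimmest there.

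A few genes differed from both other arrays at the low dose. By the rule of at least 2-fold from control and at least 1.5-fold from 15 µM in the same direction, 13 genes were highest at 7.5 µM (0.279% of those compared) and 5 were lowest (0.107%). The ratios of these 13 genes to the control ran from 2.04-fold to 4.09-fold, and those to 15 µM from 1.51-fold to 2.03-fold, so most lay close to both limits. ARG1 was the 1 of them that was also 2-fold above control at 15 µM.

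ARG1, argininosuccinate synthase, which makes the direct precursor of arginine, had signals of 123, 504 and 268 in the control, at 7.5 µM and at 15 µM. It was 4.09-fold above control at the low dose and 1.88-fold above the high dose. HSP82, the stress-inducible copy of the chaperone Hsp90, had 138, 318 and 162 on the same arrays, 2.30-fold above control and 1.96-fold above 15 µM. Its probe set carries the suffix i and is not of the plain type of most genes called higher. HSC82, the near-identical copy of HSP82, had 1644 at 7.5 µM against 1601 in the control, so the split of signal between the copies is uncertain. KRE6, which is needed for beta-1,6-glucan of the cell wall, had 149, 344 and 216, and ALG3, a mannosyltransferase of the endoplasmic reticulum that builds the sugar chain for protein glycosylation, had 46.4, 107 and 70.0. These 4 were the brightest of the 13.

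The others had signals between 42.5 and 73.5 at 7.5 µM. ROX1, a repressor of hypoxic genes that depends on heme, had 27.7, 57.7 and 33.3 in the control, at 7.5 µM and at 15 µM. ARP7, an actin-related subunit of the SWI/SNF and RSC chromatin remodelling complexes, had 27.6, 57.4 and 28.2, with the control and 15 µM arrays nearly equal. MED6, a subunit of the Mediator complex of RNA polymerase II, had 19.5, 56.0 and 36.8. Others were YEA6, a mitochondrial NAD transporter (2.35-fold above control), MSB4, a GTPase-activating protein of polarised growth (2.16-fold), YVC1, the vacuolar cation channel (2.08-fold), ANT1, the peroxisomal ATP carrier (2.04-fold), YDR444W (2.22-fold) and ARO5 (at least 2.33-fold). Of the 13, only ARG1, KRE6, HSP82 and ALG3 stood apart at the 60th percentile floor. Averaging the probe sets of each gene put ALG3, YDR444W and YVC1 under 2-fold. With spike scaling, which called 31 such genes, 4 of the 13 were among them.

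Of the 5 genes lowest at 7.5 µM, RGT1 encodes the glucose-responsive repressor of hexose transporter genes. Its signals were 50.3, 20.1 and 40.8 in the control, at 7.5 µM and at 15 µM, log2 -1.32 from control and 2.03-fold below 15 µM. POM34, an integral membrane protein of the nuclear pore, had 87.1, 37.9 and 82.8, and PEX25, a peroxisomal membrane protein that takes part in peroxisome proliferation, had 72.9, 36.2 and 70.0. In both, the control and 15 µM arrays nearly coincided. TPH3 had 169, 75.6 and 137. FMP25, a mitochondrial protein gene, had 37.1, 11.2 and 41.3 and was at least 2.03-fold lower than the control. The second probe set of TPH3 had a log2 ratio of -0.13 to control, and its call ended when its probe sets were averaged. FMP25 and PEX25 lost their calls with the values as deposited, and of the 5 genes 1, TPH3, was called at the 60th percentile floor. No gene was called lowest at 7.5 µM with spike scaling.

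**Figure D3:**
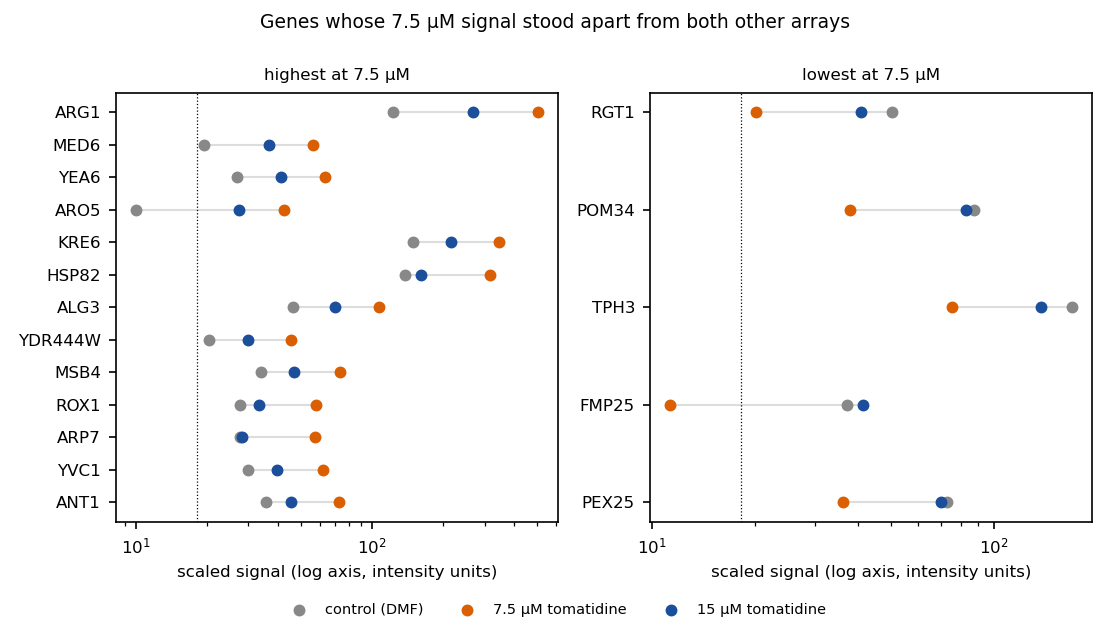
Scaled signal on the control, 7.5 µM and 15 µM arrays (log axis, intensity units, 1 dot an array) for the 13 genes highest and the 5 genes lowest at 7.5 µM, with the floor as a dotted line. The orange 7.5 µM dots lie at the end of every row, as the rule requires, and in POM34, PEX25 and ARP7 the other arrays nearly coincide.

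Amino acid synthesis genes were among those above control at the low dose, with arginine and lysine genes first. Of 8 arginine genes compared, 7 lay above 0 and 2, ARG1 and ARG4, were at least 2-fold higher, with a median log2 ratio of 0.65, beside -0.04 for all genes compared, of which 45.5% lay above 0. ARG4, argininosuccinate lyase, the last step of the pathway, had 160, 374 and 267 in the control, at 7.5 µM and at 15 µM. ARG7, a mitochondrial ornithine acetyltransferase, had a log2 ratio of 0.90 to control and ORT1, the mitochondrial ornithine exporter, of at least 0.87. The upstream enzyme genes ARG8 and ARG3 had 0.30 and 0.43, and ARG2, which starts the pathway, had -0.61. CPA1, a subunit of carbamoyl phosphate synthetase, had 163, 214 and 284 in the control, at 7.5 µM and at 15 µM, and was the 1 member brighter at 15 µM. The median log2 ratio of the list to control was 0.64 at 15 µM, close to that at 7.5 µM, although the median over its genes of 7.5 µM to 15 µM was 0.41.

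In lysine synthesis 7 of 8 genes lay above 0 (median 0.57) and LYS2, the aminoadipate reductase, was 2.34-fold higher, with 201 at 7.5 µM against 85.6 in the control. LYS1, LYS4 and LYS9 had log2 ratios of 0.98, 0.88 and 0.79, and 4 of the 8 were brighter at 7.5 µM than at 15 µM. In sulfate assimilation and methionine synthesis 20 of 25 lay above 0 (median 0.19) and 2 were called. MET14, adenylylsulfate kinase, had 84.1 at 7.5 µM against 39.8 in the control, and MET3, ATP sulfurylase, had 36.8 against 18.3, just above the floor. MET17, which fixes sulfide into homocysteine, had a log2 ratio of 0.85 and SAM2, one S-adenosylmethionine synthetase, 0.95, while SAM1, the other, had -0.57. Of 13 aromatic amino acid synthesis genes 11 lay above 0 and none was called, with ARO3, which opens the pathway, at 0.95.

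Histidine and branched-chain synthesis genes lay nearer the control than those of arginine and lysine. Histidine genes had a median of -0.25 over 7 and branched-chain genes 0.02 over 11. None of either was called, which beside 2.02% of all genes higher and 0.623% lower says nothing particular about them. GCN4, the activator of amino acid synthesis genes, which is known to be controlled mainly through translation, had signals of 795, 879 and 795 in the control, at 7.5 µM and at 15 µM. MET14 lost its call at the 60th percentile floor, and MET3 both there and with no floor and a pseudocount.

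In the pathway from squalene to ergosterol all 16 genes lay above 0 at 7.5 µM (median 0.98) and 7 were called higher. CYB5, cytochrome b5, which passes electrons to sterol enzymes, had 493 at 7.5 µM against 109 in the control. ERG9, squalene synthase at its start, had 439 at 7.5 µM against 173 in the control, and ERG4, the last reductase, had 999 against 399. Between them, ERG28, the scaffold of the C4 demethylation complex, had 431 against 142, ERG24, the C14 reductase, 314 against 133, ERG26, the C3 dehydrogenase, 317 against 151, and ERG5, the C22 desaturase, 431 against 204. ERG6, the C24 methyltransferase, had 1223 against 897, and ERG11, the lanosterol demethylase, 1367 against 1203, both under 2-fold.

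The 9 mevalonate genes had a median of 0.38 with 1 called. ERG8, phosphomevalonate kinase, had 393 at 7.5 µM against 188 in the control. HMG2, an HMG-CoA reductase isozyme, was not called, but its signals of 153, 248 and 137 in the control, at 7.5 µM and at 15 µM put the low dose 1.81-fold above the high one. HMG1, the other isozyme, had 438, 504 and 460. Of 18 genes of sterol storage and transport (median 0.05) ATF2 and YEH1 were called. YEH1, a steryl ester hydrolase, had 204 at 7.5 µM against 81.4 in the control, and ARE1, which esterifies sterols, had a log2 ratio of 0.60.

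Of 14 genes of sterol uptake and hypoxic mannoproteins, 5 were called higher at 7.5 µM (median 0.51): DAN4, DAN1, HES1, TIR3 and TIR1. TIR3 had 457 at 7.5 µM against 150 in the control. TIR1, the brightest of these mannoproteins, had 2823 at 7.5 µM, against 1223 in the control. Of members not called at 7.5 µM, TIR4 had 48.7, 78.9 and 226 in the control, at 7.5 µM and at 15 µM. The sterol importer PDR11 had a log2 ratio to control of 0.87 at 7.5 µM. AUS1, its paralog, had 0.30 on its brightest probe set, and its others above the floor had -0.39, -0.02 and 0.35. Of 9 seripauperin genes with a single-gene probe set, part of a large family of cell wall proteins, none was called at 7.5 µM (median 0.14). Each of them was brighter at 15 µM than at 7.5 µM. Among probe sets annotated to several seripauperin genes, one was 2.20-fold higher, with 77.7 at 7.5 µM against 35.3 in the control. Another was at least 2.25-fold higher, with 41.0 against 13.2. Probe sets of that family share sequence among its members.

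Aerobic cell wall genes lay below the control, 10 of 12 under 0 with a median of -0.35, and 1 was called. How far that median depends on the scaling is not shown here, whereas that of the ribosomal protein list, given below, did depend on it. TIP1 had 282 at 7.5 µM against 1211 in the control and was 4.29-fold lower. CWP1 and CCW12, both major mannoproteins, had log2 ratios of -0.72 and -0.57. Of 19 genes of glucan and chitin synthesis 14 lay below 0 (median -0.14), while KRE6 and GSC2 were called higher. FKS1, the main beta-1,3-glucan synthase, had 1276 at 7.5 µM against 2082 in the control on its brightest probe set (log2 -0.71). The other FKS1 probe sets above the floor had log2 ratios between -0.35 and -0.08. GSC2, the paralog of FKS1, had 116 against 51.2 on its brightest probe set, but averaging its probe sets took it under 2-fold.

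Phosphate genes were higher in part. Of 13 compared, 4 were called (median 0.34). PHO5, the secreted acid phosphatase, had 666 at 7.5 µM against 178 in the control, and PHO89, a sodium-coupled phosphate transporter, had 887 against 253. PHM8, a nucleotide phosphatase, had 63.7 against 24.2, and PHM6 had 181 against 75.9. A probe set annotated to both PHO11 and PHO12, and so outside the 13, was 2.31-fold higher, with 1009 against 436. The main transporter gene PHO84 was bright and level, with 1983 at 7.5 µM and 2046 in the control, and the vacuolar polyphosphate polymerase genes VTC1 to VTC4 had log2 ratios between -0.12 and 0.25. PHM8 lost its call at the 60th percentile floor.

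Among genes of reserve carbohydrates and stress, single enzymes rather than whole lists were called. PGM2, phosphoglucomutase, had 119 at 7.5 µM against 39.4 in the control, TPS2, trehalose phosphate phosphatase, 163 against 77.2, GLC3, the glycogen branching enzyme, 80.3 against 38.1, and GPH1, glycogen phosphorylase, 69.7 against 34.2. The list of 18 had a median of 0.07 with 9 members below 0, among them TSL1, a regulatory subunit of trehalose synthesis, at -0.59. None of 14 general stress genes was called (median 0.21). GPP2, a glycerol phosphatase of the osmotic response, had 160 against 58.9. Of the chaperones HSP82 was the 1 called of 22 (median -0.12), and of 33 proteasome genes SCL1, a subunit of the core particle next to ERG4 on the chromosome, was the 1 called, with 258 at 7.5 µM against 126 in the control. Of all genes, 2.02% were called higher and 0.623% lower. Counts this small therefore say nothing particular about the general stress, chaperone or proteasome lists. RPT6, a proteasome ATPase, was not called, with 363, 486 and 159 in the control, at 7.5 µM and at 15 µM. GLC3 and GPH1 lost their calls at the 60th percentile floor.

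In drug efflux 11 of 15 genes lay above 0 (median 0.41). ICT1, a lysophosphatidic acid acyltransferase under the drug resistance regulators, was called higher, with 257 at 7.5 µM against 97.0 in the control. QDR2, a multidrug and potassium transporter, was called lower, with 57.5 against 120, though not with the values as deposited. PDR5, the main drug pump, had 1257 against 777, and the regulators PDR1 and PDR3 both had log2 ratios of 0.72.

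**Figure D4:**
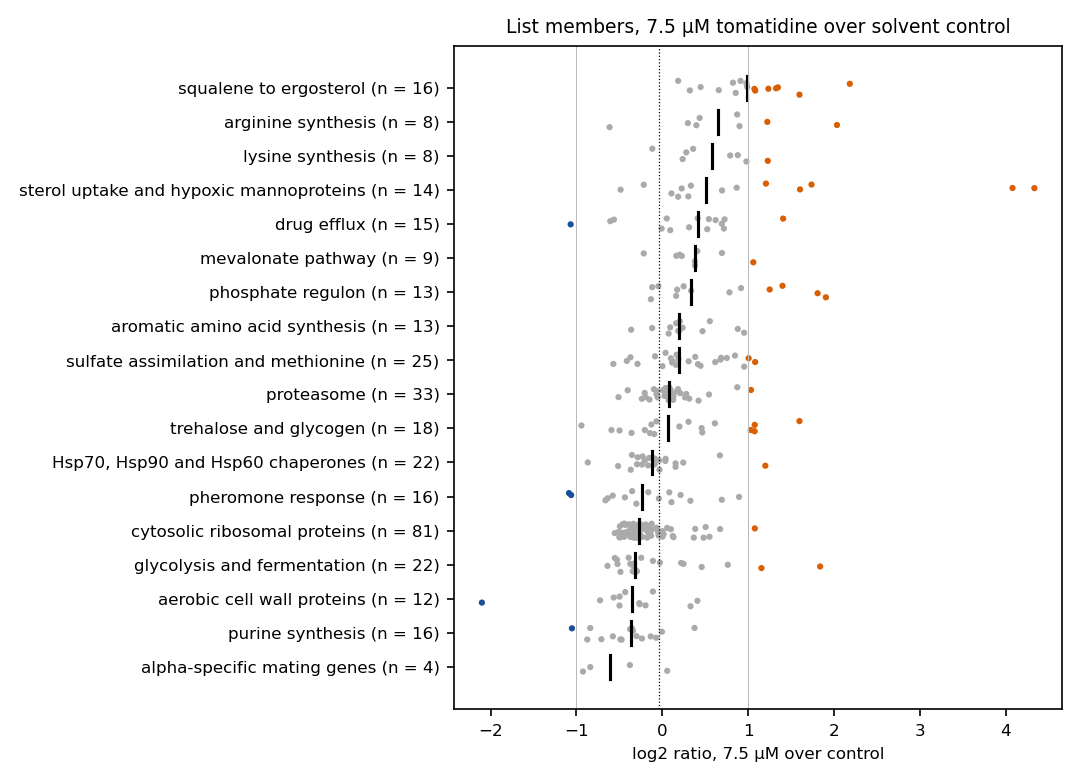
Log2 ratio of 7.5 µM to control (horizontal) for the compared members of 18 gene lists, 1 dot a gene, with n in brackets and the median of each list as a black bar. Orange dots are at least 2-fold higher, blue dots at least 2-fold lower, and the dotted line is the median of all genes (-0.04). The squalene to ergosterol list lies wholly above 0, whereas in most other lists a few genes stand away from the rest.

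Of the 24 named genes called lower, 20 lost the call with spike scaling, and TIP1, TPO2, AQY2 and ARO10 kept it. TPO2, a polyamine exporter, had 16.4 at 7.5 µM against 77.1 in the control and was at least 4.23-fold lower, while TPO1 and TPO4 had log2 ratios of 0.45 and 0.37. The probe set of TPO2 carries the suffix i, as does that of HSP82. AQY2, a water channel gene, had 19.7 against 72.4, and YLL053C, which lies next to it, had 43.7 against 101. ARO10, the decarboxylase of the Ehrlich pathway, had 12.3 at 7.5 µM, against 65.9 in the control. ARO9, the aromatic aminotransferase of the same pathway, had 77.4 against 169, so that both targets of Aro80 in the list were called lower. The other 6 of 8 Ehrlich genes were not called, and ARO80 itself was under the floor. ZRT1, the high affinity zinc transporter, had 86.2 against 204, and ZRT2, the low affinity one, had a log2 ratio of -0.76. Of the same 13 zinc genes COT1, a vacuolar zinc and cobalt transporter, was called higher at the threshold, with 118 at 7.5 µM against 58.8 in the control, and lost the call under quantile normalisation and with a pseudocount. TPO2, AQY2 and ARO10 fell short of 2-fold when the floor was raised to the 60th percentile.

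In hexose uptake HXT1, a low affinity transporter, was 2.39-fold higher, with 736 at 7.5 µM against 308 in the control, and HXT3, another, had a log2 ratio of 0.60. The high affinity transporter HXT6 was 2.64-fold lower, with 431 against 1137, and its near-identical copy HXT7 had -0.89, each read by probe sets that can share sequence. The list of 14, which also holds the hexose kinases, had a median of -0.11. In glycolysis and fermentation 16 of 22 genes lay below 0 (median -0.32, or -0.28 relative to all genes), against ADH5 and ENO1 higher. A similar median of the ribosomal protein list, given below, came near 0 with quantile normalisation and lowess centring. How far the glycolysis median depends on the scaling is not shown here. ENO1, an enolase, had 2385 at 7.5 µM against 1072 in the control, and its close copy ENO2 had 2177 against 3125. The ENO1 probe set also carries the suffix i, so the split of signal between these copies is uncertain. HAP4, the activator subunit for respiratory genes, had 21.1 against 61.9, while of 30 genes of the respiratory list no other was called (median -0.15). HAP4 lost its call at the 60th percentile floor, and HXT6 and HAP4 with spike scaling.

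Of 16 purine synthesis genes 15 lay below 0 (median -0.36), and ADE17, which catalyses the last steps to inosine monophosphate, was called lower, with 581 at 7.5 µM against 1205 in the control. Its call ended under quantile normalisation, lowess centring, spike scaling and no scaling at all. Its isozyme ADE16 was level, at 244 and 245. As for glycolysis, how far the purine median depends on the scaling is not shown here. In the pheromone response 2 of 16 genes were called lower. FUS1, a cell fusion protein, had 34.8 at 7.5 µM against 73.9 in the control, a call that ended with spike scaling and at the 60th percentile floor. AGA1, the anchor of the agglutinin, had 175 against 365, a call that the deposited scale, lowess centring and spike scaling each ended. Of the 4 alpha-specific genes 3 lay below 0 (median -0.61) and none was called, with MF(ALPHA)2, an alpha-factor gene, at -0.92. SST2, which turns the pheromone signal off, had 125 at 7.5 µM against 159 in the control. FUS3, a kinase of the pathway, had 57.5 against 85.8 on its brightest probe set and 34.9 against 71.0 on another, so its probe sets lay on either side of 2-fold.

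POL30, the sliding clamp of DNA replication, had 134 at 7.5 µM against 312 in the control, the 1 called of 23 genes of G1 and replication (median -0.13). CLN1, a G1 cyclin, followed with a log2 ratio of -0.83. In whole cultures, fewer cells in a given phase and less RNA per cell cannot be told apart. CDC16, a subunit of the anaphase-promoting complex, had 28.4 at 7.5 µM against 67.8 in the control and DUS3, which modifies transfer RNA, 36.3 against 83.1. NFG1 had 26.7 against 81.5, and SFK1, a plasma membrane protein, was at least 2.27-fold lower. CDC16, DUS3, NFG1 and SFK1 all lost their calls at the 60th percentile floor.

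Shares of called genes in most of the following groups were near those of all genes (2.02% higher and 0.623% lower), so the counts of those groups say nothing particular about them. Of 81 cytosolic ribosomal protein genes 1 was 2-fold higher, RPL7B, with 753 at 7.5 µM against 357 in the control on one probe set and 265 against 124 on another. The median of that list was -0.28, but relative to all genes it was -0.24, and 0.01 with quantile normalisation and 0.02 with lowess centring. None of 67 mitochondrial ribosomal protein genes (median -0.19), 43 ribosome biogenesis genes (-0.03), 24 iron and copper genes (0.02), 23 nitrogen genes (0.03), 14 fatty acid genes (-0.14) or 14 ATP synthase genes (-0.28) was called. Of 21 peroxide defence genes TSA2 was the 1 called, with a median of 0.04. The eisosome list was small and its share of higher genes was above that of all genes, with FHN1 and SLM1 called higher of 12. FHN1 had 57.3 at 7.5 µM against 17.9 in the control and SLM1 39.4 against 16.5, so they were at least 3.14-fold and 2.16-fold higher, and both calls ended at the 60th percentile floor. In sphingolipid genes YSR3 was higher and YPC1, a ceramidase, lower, with a median of -0.05 over 24. The YPC1 call ended on the deposited scale, with spike scaling and at the 60th percentile floor. Beside the ROX1 value above, the hypoxic genes ANB1 and AAC3 had log2 ratios of -0.16 and -0.06, and HEM13, coproporphyrinogen oxidase, had 0.97.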

How the data were processed

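Per the file headers and values, the authors deposited 1 linear intensity per probe set for each array; how probes were summarised and whether background was corrected is not given in the sources used here. Trimmed means of the 3 columns were equal (100.1 each). Scaling set the median of 9275 non-control probe sets equal across arrays, at the geometric mean of the 3 medians (factors 1.04 for control, 0.986 for 7.5 µM and 0.974 for 15 µM), and signals under 18.2 were raised to that floor. The annotation gave 6504 probe sets 1 gene, 328 several and 2443 none. Symbols follow the R64 gene table, and the probe set brightest on average stands for each of 5656 genes. The files name no genome build, and coordinates are left out.

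The members and the 53 lists were chosen with earlier results of these data known. Named were the 15 largest ratios in each direction, up to 10 genes in each direction that stood apart from both arrays (the 3 smallest of 13 complete them), called list members and up to 5 others of a list by size of ratio; further members were named after their values were seen. The rule of size was tried on simulated data. There the changes were planted only in probe sets well above the floor, and the noise was taken from these same arrays. The simulation therefore says nothing about dim genes. Results were recomputed on the deposited scale, after quantile normalisation, lowess centring (span 0.3) or spike scaling, with the floor at percentile 20 or 60, with a pseudocount (percentile 5) in place of a floor, and from the mean of a gene's probe sets. Taking the probe set with the highest maximum was added after seeing the data. The software was Python 3.11.15 with numpy 2.4.6, pandas 2.3.3 and statsmodels 0.14.6, and figures were drawn in matplotlib 3.10.9.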

Additional observations from a re-analysis of the deposited data

How the results depend on the processing

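All 94 higher genes were called higher with the values as deposited, lowess centring, spike scaling and the lower floor. Keeping these calls was largely fixed in advance. The deposited values, lowess centring and spike scaling moved the median log2 ratio of all genes up, by 0.07, 0.04 and 0.65. A lower floor cannot shrink a ratio. Of the 94, quantile normalisation kept 89, averaged probe sets 83, a pseudocount 89 and the higher floor 56. Taking each gene's probe set of highest maximum, an alternative chosen after seeing the data, gave 94 higher and 31 lower genes, and 13 and 5 apart. Counts past 1.5 times the reported ones were as follows. With spike scaling, which moved the median log2 ratio of all genes by 0.65, there were 797 higher and 4 lower genes, 956 higher and 6 lower probe sets (130 and 50 as reported, 2.22% and 0.852% of 5869), and 31 and 0 genes apart from both arrays. With the floor at the 20th percentile these were 157 and 128 genes, 271 and 383 probe sets, and 35 and 61 apart. With the floor at the 60th percentile they were 56 and 10 genes, 68 and 17 probe sets, and 4 and 1 apart. With no floor and a pseudocount they were 221 and 242 genes, 641 and 919 probe sets, and 64 and 157 apart. With the values as deposited, 19 genes and 33 probe sets were lower and 3 genes were lowest at 7.5 µM. The floors change which dim genes can reach 2-fold. The deposited values and spike scaling differ from the reported scale by 1 factor per array. Such a factor moves the ratios of all genes above the floor alike, by 0.07 and 0.65 at the median. The cause of the shift with a pseudocount, and of the dimmer spikes at 7.5 µM, was not tested. Of 81 named genes 38 were called under every alternative and 5 more under all but spike scaling, and none changed direction. Relative to all genes, list medians moved by more than the spread between probe sets of a gene only for arginine synthesis (1.11) and for thiamine, pyridoxine and biotin (-0.45), both with the floor at the 60th percentile. No paired analysis was possible because each condition had 1 array. Dim signals limit what can be seen, since 4653 of 5656 genes were above the floor.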

Other observations

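Probe sets annotated to several genes were called higher more often than those with 1 gene, mostly through 1 family. Of 240 compared probe sets that the annotation gives to several genes, 20 were at least 2-fold higher at 7.5 µM (8.33%) and 1 lower, beside 1.98% and 0.741% of 4996 probe sets with 1 gene. Of these 20, 14 belonged to 1 family, each probe set of which the annotation gives to several of YHL009W-A, YHL009W-B, YJL113W and YJL114W. Of 30 probe sets of that family 19 were compared and none was lower. The 14 were between 2.03-fold and 4.62-fold higher, with signals from 37.0 to 126 at 7.5 µM against 14.1 to 50.8 in the control. At 15 µM 13 of the 14 were brighter still, from 52.6 to 279. They share sequence, so they are not separate measurements and no member can be given the signal.

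Among 633 compared probe sets without an annotation entry, 11 were higher (1.74%) and 12 lower (1.90%), beside 1.98% and 0.741% of probe sets with 1 gene. The largest ratio belonged to a probe set with signals of 48.0, 253 and 132 in the control, at 7.5 µM and at 15 µM.

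The array also carries control probe sets for a few yeast genes, which were left out of every comparison above. That of WBP1, a subunit of the oligosaccharyltransferase, had 298 at 7.5 µM against 165 in the control, while the regular probe set of WBP1 had 499 against 389. That of URA3 had 138 against 136, and the regular one 77.9 against 106.

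In the gene order of the R64 table, 3 pairs of adjacent genes were called higher together, DAN1 with DAN4, ERG4 with SCL1, and YPR127W with ANT1, and 1 pair lower, YLL053C with AQY2. Of the 10 called genes with several probe sets above the floor, RPL7B was the 1 with every probe set at 2-fold, and in 8 all pointed the same way. The exceptions were ICS2 and YDR444W, with lowest log2 ratios of -0.18 and -0.04.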
